A study of Mus musculus with 4 samples.

Results

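Mixed-1 is 1 of the 17 clusters of kidney nuclei in the authors' cluster table, and its name says no cell type. Its members here were the genes with at least 1 unique molecular identifier (UMI, a count of 1 captured RNA molecule) in its column, 16631 of the 24468 genes listed. All of them were described against the other 16 clusters, and first against mixed-2, the other cluster without a cell type in its name, and against EC2. Nuclei came from kidney cortex with outer medulla of male C57BL/6 mice and were counted in a droplet assay that captures the 3' ends of RNA. Group CT9w (2 samples) was untreated, and group Cis9w (2 samples) had received cisplatin, a platinum drug toxic to the proximal tubule, at 8 mg/kg in 4 weekly injections, with kidneys taken 9 weeks after the first. The mice carried no transgene or deletion that the labels name. The sample descriptions attach the cluster table to replicate 2 of each group, and whether nuclei of replicate 1 also entered it is not stated there. Its columns are not divided by sample or treatment, so Mixed-1 is a single pool whose ratio of untreated to treated nuclei is unknown, with no test, no spread between animals and no comparison of treatments.

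Each value is an average, in normalised UMIs per nucleus, and every column was scaled by the authors to the same total, 2008. Mixed-1 rested on 898063 UMIs, 2.49% of the 36068714 in the table, EC2 on 932023 and mixed-2 on 254460. An average resting on 3 UMIs was 0.00671 in Mixed-1, 0.00646 in EC2 and 0.0237 in mixed-2, so mixed-2 is the least precise comparator. Intervals in parentheses after a ratio are 95% intervals for the counting error of UMIs and leave out variation between nuclei or animals. Transcripts of the 13 mitochondrially encoded genes were 0.121% of UMIs in Mixed-1, against 0.116% in EC2 and 0.236% in mixed-2. A low average can come from fewer nuclei that hold a transcript or from less of it per nucleus, and a pooled column cannot tell these apart. Averages were not divided by gene length, so a level is compared between clusters and not between genes.

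Stromal cells fill the space between the tubules and around the vessels of the kidney. Fibroblasts lay down collagens and other matrix proteins and carry the receptor Pdgfra, while pericytes, smooth muscle cells and the mesangial cells of the glomerulus are contractile mural cells that carry Pdgfrb and set the calibre of small vessels. Their tone is raised by angiotensin, endothelin and calcium entry and lowered by nitric oxide acting through cyclic GMP. After tubular injury, stromal cells are a main source of scar matrix.

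The stromal label was checked first on Pdgfra, Pdgfrb, Col1a2 and Col3a1. All 4 had their highest average in Mixed-1. Pdgfra, which encodes the platelet-derived growth factor (PDGF) receptor alpha (chr5:75152292-75198215, mm10), averaged 1.12 in Mixed-1 and 0.339 in mixed-2, and 0.00139 to 0.0166 (median 0.00549) in the other 15 clusters. Pdgfrb, the receptor beta, averaged 0.845 in Mixed-1, 0.284 in mixed-2 and 0 to 0.0468 (median 0.00406) in the other 15. The order was the same for both receptors: Mixed-1, then mixed-2, then every other cluster at a small fraction of either. Col1a2, a chain of type I collagen (chr6:4504814-4541544), averaged 0.570, 0.245 and 0.00111 to 0.137 (median 0.00695) in the same order. Col3a1, which forms type III collagen (chr1:45311538-45349706), averaged 0.463, 0.103 and 0 to 0.0163 (median 0.00278). Against the next cluster, mixed-2 each time, the ratios were 3.29-fold (2.41 to 4.60) for Pdgfra, 2.98-fold (2.11 to 4.31) for Pdgfrb, 2.33-fold (1.60 to 3.50) for Col1a2 and 4.51-fold (2.58 to 8.62) for Col3a1. Leaving mixed-2 aside, Pdgfra was 67.3-fold (22.9 to 327) above its next cluster, Immune cells, and Pdgfrb 18.1-fold (10.8 to 32.6) above Podocyte. These 4 genes were given with the cluster's label, so their rank is a check of that label. Whether Pdgfra and Pdgfrb come from the same nuclei or from different cells within the pool cannot be read from averages.

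**Figure D1:**
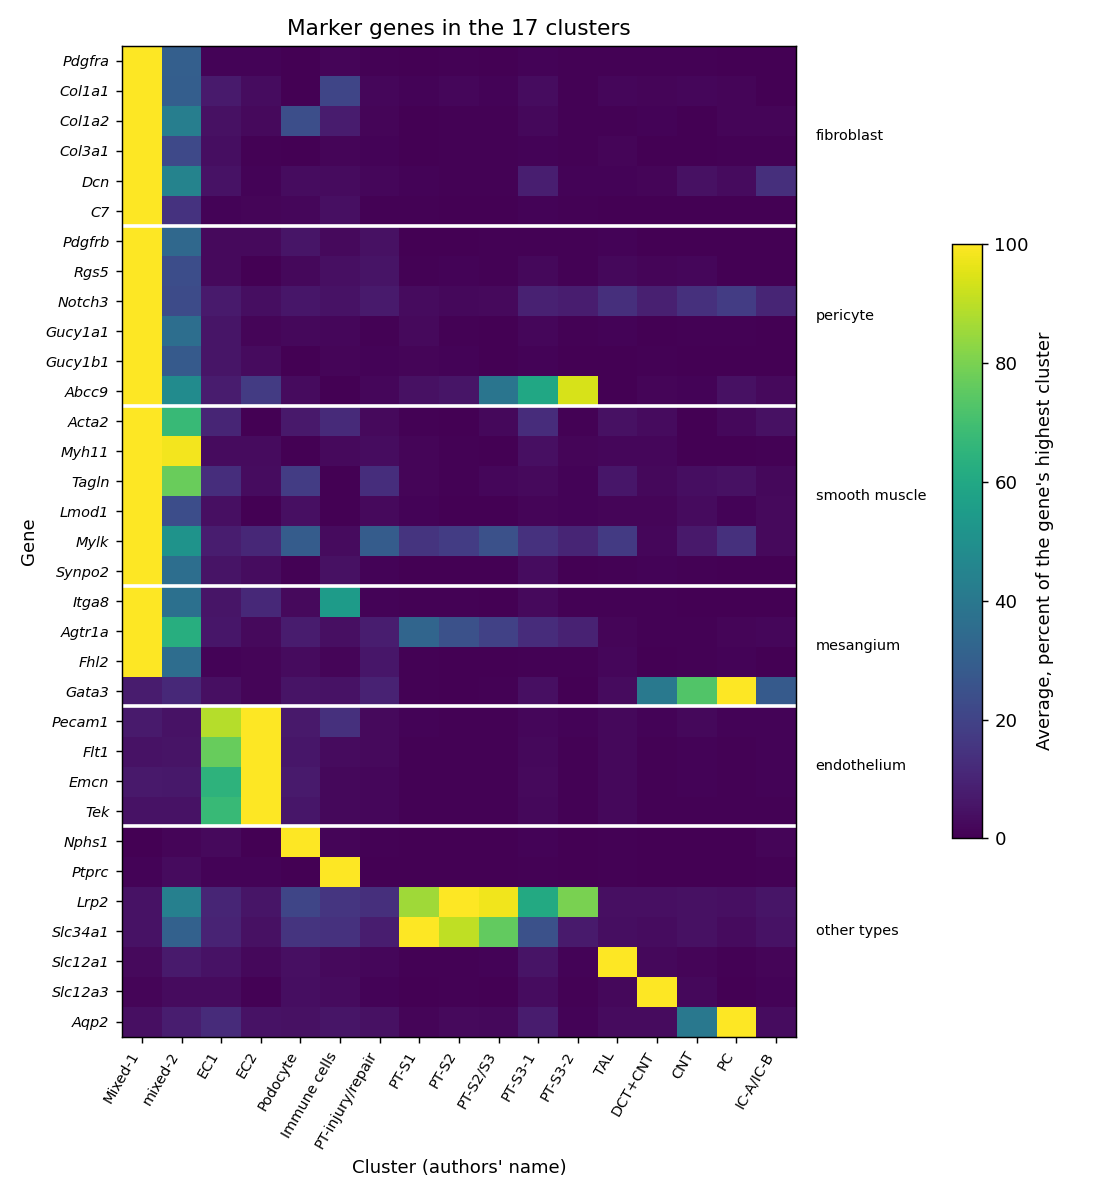
Averages of marker genes (rows) in the 17 clusters (columns), each as a percent of the gene's highest cluster, so that yellow marks the highest. The fibroblast markers drawn are only the 6 that led, and Scara5 and Gsn, which peaked elsewhere, are not drawn. The fibroblast and pericyte markers drawn are highest in Mixed-1, with a weaker signal in mixed-2. The endothelial, podocyte, immune and tubule markers drawn peak elsewhere.

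A gene was counted as leading in Mixed-1 when its average was at least 2-fold above the highest of the other 16, after adding 0.01 to each average, among the 7665 genes that reached 0.1 in any cluster. Mixed-1 was the highest cluster, by any margin, for 708 of them (9.24%), and 216 (2.82%) passed the 2-fold mark. With mixed-2 left aside, 252 (3.29%) passed, all of the 216 among them. Of the 252, 232 were protein-coding, 9 were lincRNAs, 6 were processed transcripts and 5 were antisense RNAs. The nearest genes to the 2-fold mark were Itga1 and Adra1b just inside it (log2 1.02 and 1.01) and Ano1 and Dmd just outside (1.00 and 0.99). These shares of all genes, 2.82% and 3.29% with mixed-2 aside, stand for comparison beside every count of leading list members below. A gene that reaches 0.1 only in Mixed-1 is bound to be higher there, so the counts of list members below describe the profile and support nothing further.

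Mixed-2 was the next cluster for 169 of the 216 genes, EC2 for 14, PT-injury/repair for 9, EC1 for 6, podocytes for 5 and immune cells for 4. Without mixed-2 the second place was spread more evenly, with PT-injury/repair next for 52 of the 252 genes, EC2 for 50, EC1 for 39, immune cells for 31 and podocytes for 27.

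Pericyte and fibroblast markers had the largest shares of leading members among the cell type lists. Of the pericyte markers that reached 0.1, 5 of 6 led, and of the fibroblast markers 6 of 8, against the 2.82% of all genes. The full lists held 12 pericyte and 16 fibroblast markers, and those below 0.1 in every cluster are left out of these counts. Pdgfrb, Pdgfra, Col1a2 and Col3a1, which were given with the label, are among the leading markers, so the counts are no separate support for it. The pericyte genes were Pdgfrb, the nitric oxide receptor subunits Gucy1a1 and Gucy1b1, the Notch receptor Notch3 and Rgs5, a regulator of G-protein signalling. Rgs5 averaged 0.134 in Mixed-1 and 0.0316 in mixed-2 and had 0 UMIs in EC2. Abcc9, the sulfonylurea receptor of the vascular potassium channel, was the exception among pericyte markers, at 0.212 in Mixed-1 and 0.199 in PT-S3-2. The fibroblast genes were Pdgfra, Col1a1, Col1a2, Col3a1, the proteoglycan decorin (Dcn) and the terminal complement component C7. The other 2 peaked elsewhere, Scara5 at 0.157 in DCT+CNT against 0.00894 in Mixed-1 and gelsolin (Gsn) at 0.237 in podocytes against 0.0693. C7 averaged 1.79 in Mixed-1, 0.260 in mixed-2 and 0.00189 to 0.0718 (median 0.00714) in the others. Several well-known stromal markers were scarce in the pool: Higd1b and the smooth muscle calponin Cnn1 had 0 UMIs, which allows an average of up to 0.00671, Lum had 4 UMIs, Fbln2 3 and Pi16 3.

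**Figure D2:**
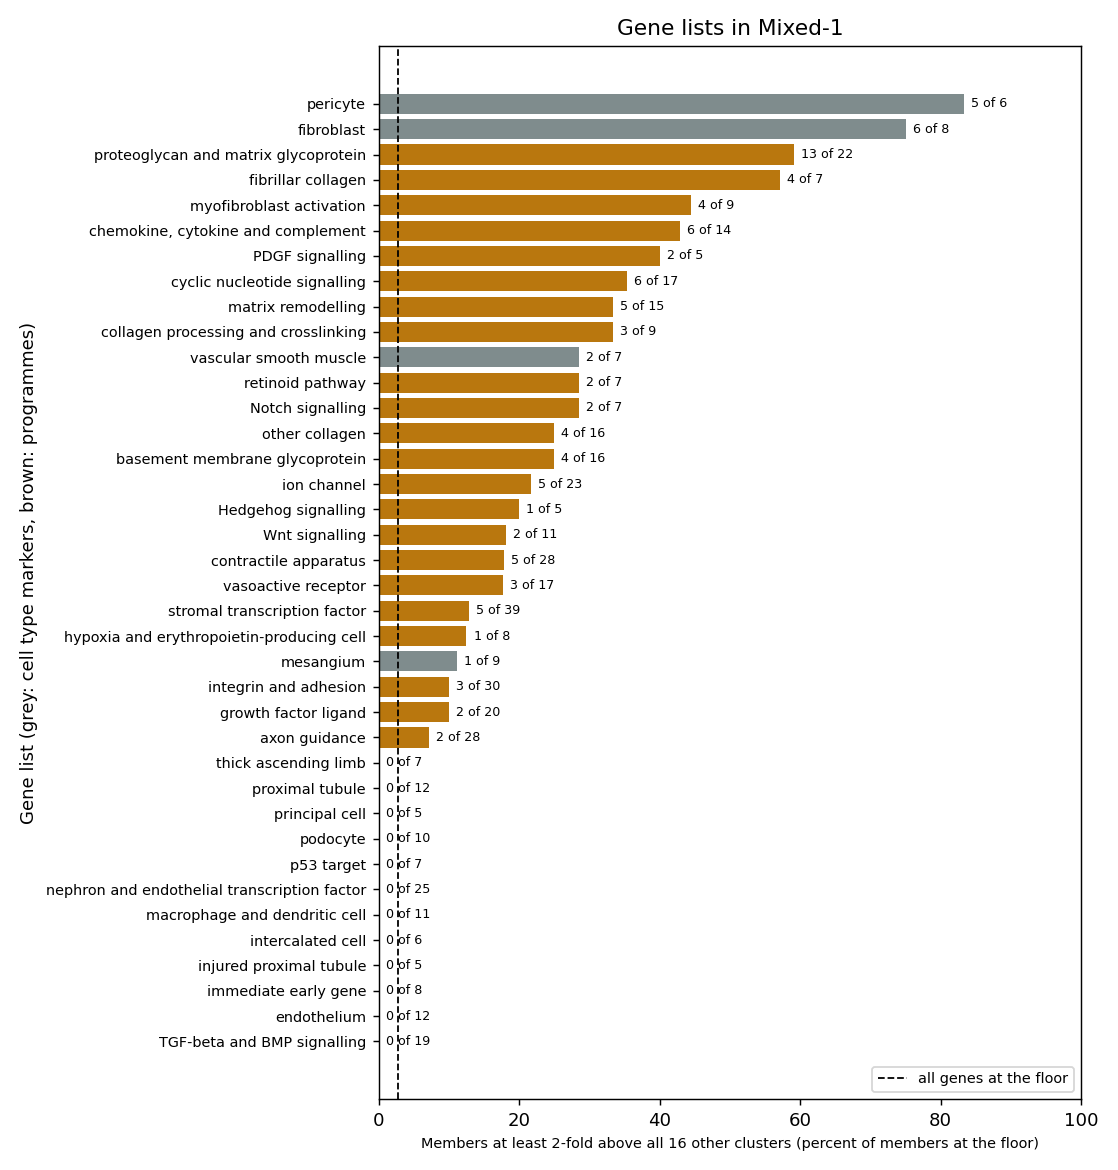
Percent of list members reaching 0.1 in any cluster whose Mixed-1 average was at least 2-fold above all 16 other clusters, with counts beside each bar. Grey bars are cell type markers, brown bars programmes, and the dashed line is all genes (2.82%). Lists with fewer than 5 members at 0.1 are not drawn. Among these, thin limb (1 of 3) and parietal epithelium (1 of 4) had a leading member and the others had none. Pericyte (5 of 6) and fibroblast (6 of 8) markers and matrix lists lie far to the right of the line, while endothelial, podocyte, macrophage and proximal tubule markers are at 0.

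The contractile side of the profile was divided between genes that led clearly and genes that mixed-2 shared. Of 28 contractile genes at the level floor, 5 led over all clusters (Cald1, Synpo2, Flna, Lmod1 and Cnn2) and 9 led with mixed-2 aside. These were 17.9% and 32.1%, against 2.82% and 3.29% of all genes. Because contractile genes are classical targets of serum response factor, which binds the CArG box, the promoters of leading genes were searched for that motif. RefSeq (GRCm38.p6) held a promoter window, 250 bases before to 50 after a gene's start, for 160 of the 216 leading genes, 214 windows in all. A CArG box on either strand lay in 7 of them (3.27%), in 107 of the 7935 windows of all genes at the floor (1.35%) and in 535 of the 32851 windows of the whole table (1.63%). A gene can have several windows, which may hold the same box, so these and the motif shares below are of windows and not of genes. The 4 promoters shown were chosen, after their values were seen, from the leading genes with a match, to show where the box lies. Each line gives the 250 bases before the start, read towards the gene, with the CArG box in capitals.

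Fhl2 (chr1:43196762-43197011, minus strand): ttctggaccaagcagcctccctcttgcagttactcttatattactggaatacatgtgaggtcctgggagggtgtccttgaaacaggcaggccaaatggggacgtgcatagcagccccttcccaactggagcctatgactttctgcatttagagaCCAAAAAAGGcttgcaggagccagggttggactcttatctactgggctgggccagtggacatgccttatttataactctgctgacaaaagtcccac

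Lama2 (chr10:27616943-27617192, minus strand): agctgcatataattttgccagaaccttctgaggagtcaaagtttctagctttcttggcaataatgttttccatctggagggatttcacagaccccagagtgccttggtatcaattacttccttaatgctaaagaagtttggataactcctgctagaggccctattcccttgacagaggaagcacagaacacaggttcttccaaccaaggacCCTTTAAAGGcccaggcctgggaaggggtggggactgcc

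Trpc6 (chr9:8543892-8544141, plus strand): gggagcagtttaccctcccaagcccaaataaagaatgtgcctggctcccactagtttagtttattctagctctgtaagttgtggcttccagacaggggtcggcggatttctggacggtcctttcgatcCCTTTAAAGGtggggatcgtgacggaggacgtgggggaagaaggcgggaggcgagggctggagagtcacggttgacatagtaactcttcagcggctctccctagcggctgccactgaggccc

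Cnn2 (chr10:79988350-79988599, plus strand): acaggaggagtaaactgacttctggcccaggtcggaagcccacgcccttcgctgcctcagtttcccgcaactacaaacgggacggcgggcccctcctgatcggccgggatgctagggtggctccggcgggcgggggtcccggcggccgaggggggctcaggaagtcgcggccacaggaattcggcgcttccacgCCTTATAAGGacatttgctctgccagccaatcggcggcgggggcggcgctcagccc

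The box began 96 bases before the start in Fhl2, 39 in Lama2, 122 in Trpc6 and 56 in Cnn2. A match is a description of the letters and no evidence of binding. Other motifs were also searched on both strands. GGAATG, the TEAD motif, lay in 36 of the 214 windows (16.8%), against 12.6% of windows of genes at the floor and 14.7% of all windows. TATAAA lay in 23 (10.7%), above the 8.04% of genes at the floor and below the 13.6% of all windows. The motif of early B-cell factors, TCCC and GGGA with any pair of bases between, lay in 1 (0.467%), against 1.25% and 0.904%. A CArG box can hold TATAAA whole and can share its end letters with GGAATG, which can also overlap the motif of early B-cell factors.

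Fhl2, a LIM-domain protein of muscle and mesangial cells, averaged 3.39 in Mixed-1, 1.21 in mixed-2, 0.0409 in EC2 and 0.00417 to 0.206 (median 0.0226) over the 15 clusters besides mixed-2. Cnn2, a calponin, averaged 0.159 in Mixed-1, 0.0473 in mixed-2 and 0.0474 in EC2, 3.05-fold (1.75 to 5.61) above EC1, its next cluster. Caldesmon (Cald1), which holds actin filaments in the relaxed state, averaged 4.26 against 1.45 in mixed-2 and 1.46 in EC2. Leiomodin (Lmod1), a smooth muscle actin nucleator, averaged 0.235 against 0.0552 in mixed-2 and 0 UMIs in EC2. These 4 were thus highest in Mixed-1 by 2.81- to 4.25-fold.

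The canonical smooth muscle genes differed in how far they separated Mixed-1 from mixed-2. Smooth muscle myosin heavy chain (Myh11) averaged 0.217 in Mixed-1 and 0.213 in mixed-2, a ratio of 1.02-fold (0.659 to 1.62), against 0 to 0.00903 (median 0.00274) elsewhere. Transgelin (Tagln) averaged 0.123 and 0.0947, 1.30-fold (0.687 to 2.66), and alpha smooth muscle actin (Acta2) 0.0939 and 0.0631, 1.49-fold (0.690 to 3.67). All 3 intervals included 1, but those of Tagln and Acta2 also included 2-fold, so their counts were too few to tell these apart. Myosin light chain kinase (Mylk) averaged 3.24 and 1.67, 1.94-fold (1.68 to 2.26). Of the 7 smooth muscle markers at the floor, 2 led over all 16 clusters and 5 over the 15, against 2.82% and 3.29% of all genes.

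Nitric oxide and cyclic GMP signalling was represented from the receptor to the kinase and its substrate. Of 17 cyclic nucleotide genes at the floor, 6 led (35.3%, against 2.82% of all genes). The 3 subunits of soluble guanylate cyclase, which makes cyclic GMP when nitric oxide binds, averaged 3.40 (Gucy1a2), 1.25 (Gucy1a1) and 0.416 (Gucy1b1) in Mixed-1. Their averages in mixed-2 were 1.13, 0.450 and 0.118, and in EC2 0.0625, 0.0172 and 0.0129. All 3 subunits thus had low averages in EC2 and were 2.77- to 3.51-fold above mixed-2. Prkg1, the cyclic GMP-dependent kinase, averaged 10.2 against 3.97 in mixed-2, 3.82 in EC2 and 4.47 in podocytes, its next cluster. Mrvi1, the kinase's substrate that restrains calcium release, averaged 0.959 against 0.245 and 0.0129. Among the phosphodiesterases, which break cyclic nucleotides down, Pde3a led (4.73 against 1.86 in podocytes), while Pde4d averaged 2.59 in Mixed-1 against 6.55 in mixed-2 and 16.3 in PT-S3-2.

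Of 23 ion channel genes at the floor, 5 led (21.7%, against 2.82% of all genes). Among them were subunits of calcium, potassium, sodium and nonselective cation channels. Cacna1c, the pore of the L-type calcium channel that opens on depolarisation, averaged 1.44 against 0.402 in mixed-2 and 0.121 in EC2. Its auxiliary subunit Cacna2d1 averaged 1.42, 0.568 and 0.0215. The sodium-activated potassium channel Kcnt2 averaged 3.08, 0.947 and 0.0388, and stood 50.6-fold (28.2 to 102) above the highest of the 15 clusters without mixed-2. Trpc6, a cation channel of vascular muscle and of podocytes, averaged 0.105 in Mixed-1, 0.0158 in mixed-2 and 0.0187 in podocytes, the next cluster. The sodium channel Scn7a averaged 0.342, 0.110 and 0.00215. The calcium-activated chloride channel Ano1, at 0.483 and 0.237 in Mixed-1 and mixed-2, fell just short of the mark. The stretch-gated channel Piezo2 was higher in EC2 (0.745) than in Mixed-1 (0.481).

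Of 17 receptors for vasoactive hormones at the floor, Adra1b, S1pr3 and Lpar1 led, and Agtr1a and Ednra joined them with mixed-2 aside. These were 17.6% and 29.4% of the list, against 2.82% and 3.29% of all genes. The angiotensin II receptor Agtr1a averaged 1.05 in Mixed-1, 0.655 in mixed-2, 0.0259 in EC2 and 0.00663 to 0.341 (median 0.0652) across the 15 clusters. The endothelin receptor Ednra averaged 0.228, 0.166 and 0.00431, and the other endothelin receptor, Ednrb, took the opposite place with 0.112 in Mixed-1 and 0.541 in EC2. The lysophosphatidic acid receptor Lpar1 averaged 0.409, 0.134 and 0.00646 in Mixed-1, mixed-2 and EC2. For the alpha-1B adrenoceptor Adra1b the 3 averages were 0.233, 0.110 and 0.00431. Of these 5 receptors, mixed-2 thus came closest to Mixed-1 for Ednra, with 72.7% of its level, and for Agtr1a, with 62.6%.

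The matrix genes covered fibril-forming collagens, basement membrane and the proteins between them. Of 7 fibrillar collagen genes at the floor, 4 led, namely Col1a1, Col1a2, Col3a1 and Col5a1. Col1a1, the partner of Col1a2 in type I collagen, averaged 0.132 in Mixed-1, 0.0395 in mixed-2 and 0.00431 in EC2. Col5a1, which sets fibril diameter, averaged 0.416, 0.142 and 0.0172. Its partner Col5a2 did not follow, at 0.181 in Mixed-1 and 0.606 in TAL, and Col27a1 was lower in Mixed-1 (0.145) than in mixed-2 (0.237) and PT-S1 (0.558). Among 16 other collagens, 4 led: Col6a3 of the beaded filaments (0.648, 0.189 and 0.00646 in Mixed-1, mixed-2 and EC2), the fibril-associated Col14a1 (0.975, 0.410 and 0.0237), Col15a1 (0.508, 0.158 and 0.183) and Col8a1 (0.447, 0.181 and 0.0129). The type IV chains split by pair. Col4a1 and Col4a2, the general basement membrane chains, averaged 1.06 and 1.21, the highest of the 17 clusters but within 2-fold of the next. Col4a3 and Col4a4, chains of the mature glomerular membrane, averaged 0.279 and 0.405 against 3.27 in podocytes and 2.89 in CNT.

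Laminins also separated Mixed-1 from the vessel lining. Lama2, the alpha-2 chain whose promoter is shown above, averaged 3.68 in Mixed-1, 1.44 in mixed-2 and 0.00378 to 0.0794 (median 0.0170) in the other 15. Lama4, the alpha-4 chain of vascular laminins, averaged 0.112 in Mixed-1 and 0.836 in EC2, and the heparan sulfate proteoglycan perlecan (Hspg2) 0.186 and 0.741. Lama2 and Lama4 were thus 56.9-fold (39.7 to 84.6) higher and 7.48-fold (5.56 to 10.3) lower in Mixed-1 than in EC2. Lamc3 (0.311, 0.118 and 0.00646 in Mixed-1, mixed-2 and EC2) and the linker Nid1 (0.615, 0.237 and 0.239) led as well, as did the matrix protein Egflam (0.995, 0.387 and 0.00862). In all, 4 of 16 basement membrane glycoproteins led.

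Among proteoglycans and matrix glycoproteins 13 of 22 led, the largest number of any list. The elastic fibre proteins fibulin-5 (Fbln5) and fibrillin-1 (Fbn1) averaged 2.19 and 0.682 in Mixed-1, 0.671 and 0.260 in mixed-2 and 0.0539 and 0.0431 in EC2. Elastin itself (Eln) was higher in EC1 (0.401) than in Mixed-1 (0.239). Fibronectin (Fn1) averaged 0.266, 0.0789 and 0.0129 in Mixed-1, mixed-2 and EC2. The small leucine-rich proteoglycans decorin (Dcn), biglycan (Bgn) and osteoglycin (Ogn) averaged 0.195, 0.344 and 0.134 in Mixed-1, 2.24-fold (1.19 to 4.65), 2.18-fold (1.36 to 3.67) and 2.43-fold (1.11 to 6.30) above mixed-2. Abi3bp, a collagen-binding matrix protein, stood further from mixed-2, at 0.704 against 0.142, 4.96-fold (3.09 to 8.48), as did matrilin-2 (Matn2) at 0.584 against 0.126, 4.62-fold (2.79 to 8.21). The other leading members were Spon1, Svep1, Hmcn1, Emilin1 and Ecm1, at 2.22- to 2.87-fold above the next cluster. Tenascin-C (Tnc) was highest in PT-injury/repair, at 0.248 against 0.132 in Mixed-1.

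Of 9 collagen processing and crosslinking genes at the floor 3 led. Adamts2 and Adamts14, which remove the amino-terminal propeptide, averaged 0.443 and 0.161 in Mixed-1, 0.158 and 0.0237 in mixed-2 and 0.00215 and 0.00646 in EC2. The crosslinking enzyme Loxl1 averaged 0.349, 0.142 and 0.00862. Of 15 remodelling genes at the floor 5 led, and all were of the ADAMTS family: Adamtsl1, Adamts9, Adamts5, Adamts10 and Adamts12. Adamts5, which cleaves aggrecan and versican, averaged 0.841, 0.379 and 0.0280 in Mixed-1, mixed-2 and EC2. The inhibitor Timp3 was higher in PT-S1 (4.73) than in Mixed-1 (1.37).

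Genes of the myofibroblast, the scar-forming state of a stromal cell, were present in part. Cdh11, Pdgfra, Fn1 and Col1a1 led, 4 of 9 at the floor. Others were scarce: Cthrc1, Lrrc15 and S100a4 had 0 UMIs, and periostin (Postn) had 3. Acta2, the classical myofibroblast actin, rested on 42 UMIs in Mixed-1 and 8 in mixed-2. Since untreated and treated nuclei share the column, no part of this list can be assigned to cisplatin.

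Receptors and ligands of the PDGF pathway lay in different clusters. Mixed-1 held both receptors, as given above. Pdgfb, the ligand of Pdgfrb made by vessel lining, averaged 0.343 in EC2 and 0.0134 in Mixed-1, 25.5-fold (11.5 to 70.6) lower. Pdgfd averaged 2.22 in PT-injury/repair, 1.81 in EC2 and 0.463 in Mixed-1. Pdgfc averaged 0.553 in PT-S2/S3 and 0.0604 in Mixed-1. All 4 ligands, Pdgfa (0.0134 in Mixed-1 and 0.0806 in PT-injury/repair) included, were below their highest cluster in Mixed-1 by at least 4.79-fold.

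**Figure D3:**
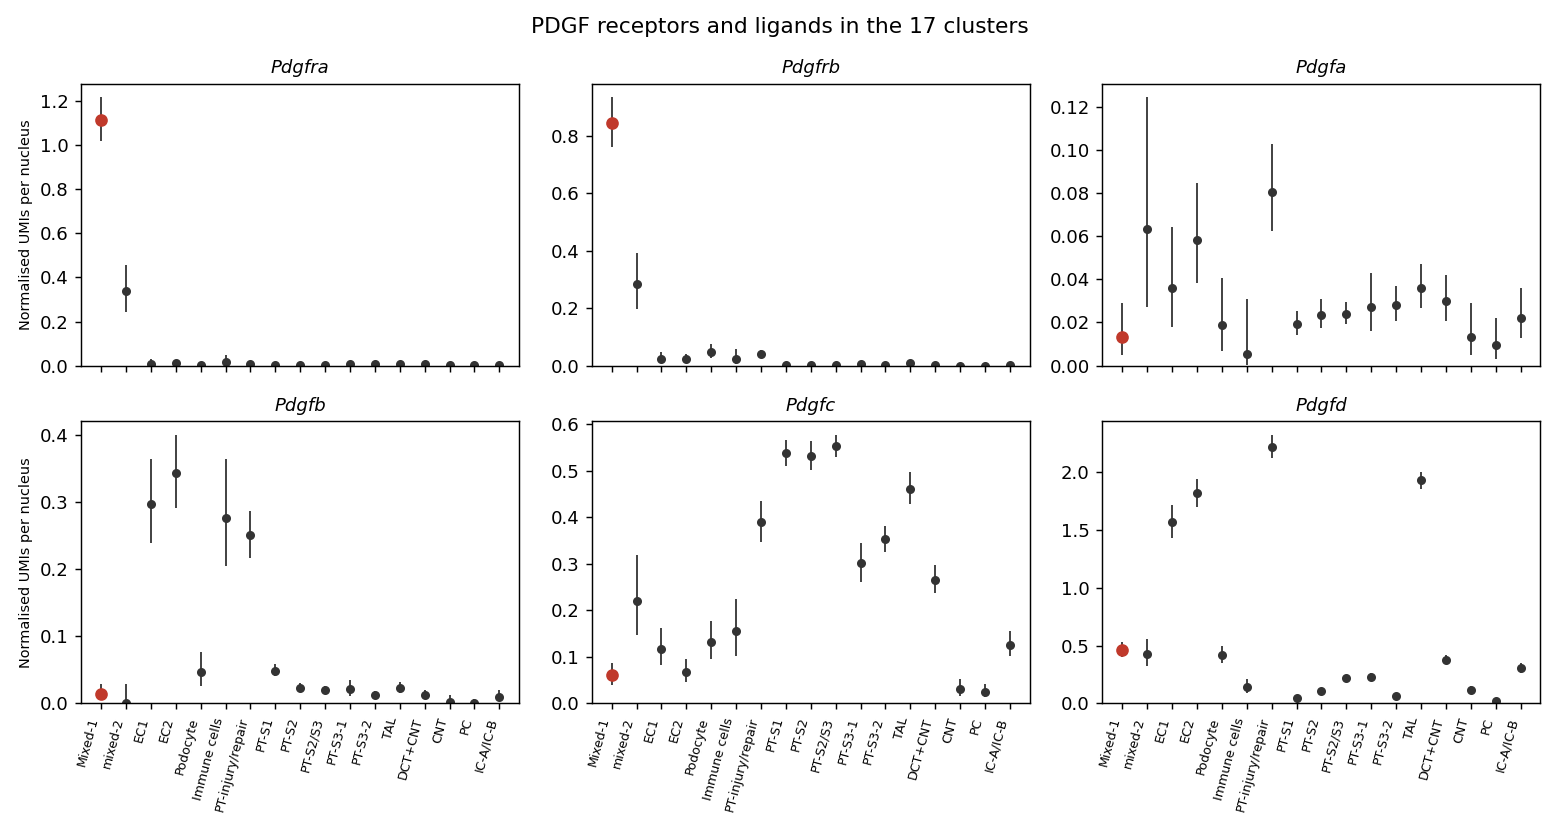
Averages of the PDGF receptors (Pdgfra, Pdgfrb) and ligands (Pdgfa to Pdgfd) in the 17 clusters, in normalised UMIs per nucleus on linear axes from 0; bars are 95% Poisson intervals of the UMI sums and the red point is Mixed-1. Both receptors peak in Mixed-1 with mixed-2 second, and each ligand peaks in another cluster.

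The 5 genes whose averages were most like those of Pdgfrb over the 17 clusters were Gucy1a2 (r = 0.987 of log2 values, n = 17 clusters), Lama2 (0.983), Cyp1b1 (0.980), Carmn (0.977) and Ptgis (0.974). Cyp1b1 is a cytochrome P450, Carmn a long noncoding RNA of cardiac and smooth muscle and Ptgis the prostacyclin synthase. Ptgis averaged 0.282 in Mixed-1, 0.126 in mixed-2 and 0.0302 in EC2, and Carmn 0.762, 0.316 and 0.0237. The clusters share their libraries, and the measure is a description.

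In Notch signalling the receptors divided by cluster. Notch3 averaged 0.452 in Mixed-1, 0.103 in mixed-2 and 0.0172 in EC2, and its target Heyl 0.112, 0.0158 and 0.00215. Notch4, a receptor of vessel lining, averaged 0.0514 in Mixed-1 and 0.254 in EC2, and the ligand Dll4 0.00447 and 0.0754. Notch3 and Heyl were the 2 leading genes of 7 at the floor, against 2.82% of all genes.

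Among 11 Wnt pathway genes, the secreted proteins Dkk2 (1.95, 0.860 and 0.459 in Mixed-1, mixed-2 and EC2) and Dkk3 (0.449, 0.181 and 0.00215) led. The 2 were 18.2% of the list, against 2.82% of all genes. The Wnt5a receptors Ror1 and Ror2 were highest in Mixed-1, at 2.30 and 0.405, by 1.37-fold (1.27 to 1.47) and 1.57-fold (1.31 to 1.87) over PT-S3-2. None of 19 TGF-beta and BMP genes reached the 2-fold mark, which 2.82% of all genes reached. Mixed-1 was the highest cluster for 5 of the 19, and for 9.24% of all genes. The accessory receptor Tgfbr3 averaged 1.22 in Mixed-1 and 0.736 in podocytes, and Smad3, which carries the signal to the nucleus, 1.02 and, in PT-injury/repair, 0.681. The ligand Tgfb2 averaged 0.159, against 0.0158 in mixed-2 and 0.114 in PT-injury/repair.

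Of 20 growth factor ligands, Ccn2 and Fgf2 led and Hgf led with mixed-2 aside. These were 10% and 15% of the list, against 2.82% and 3.29% of all genes. Ccn2, connective tissue growth factor, averaged 0.411 in Mixed-1, 0.126 in mixed-2 and 0.0582 in EC2. Fgf2 averaged 0.145, 0.0473 and 0.00215, and hepatocyte growth factor (Hgf) 0.271, 0.158 and 0.00646. Angpt1, the ligand with which mural cells act on the endothelial receptor Tek, averaged 1.01 in Mixed-1 and 1.30 in PT-S1, while Tek averaged 3.27 in EC2 and 0.154 in Mixed-1.

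The leading immune genes were complement proteins, chemokines and a cytokine receptor. Of 14 chemokine, cytokine and complement genes 6 led. Besides C7 they included the C1 inhibitor Serping1, which restrains complement (0.302, 0.118 and 0.00431 in Mixed-1, mixed-2 and EC2). The chemokines Cxcl12 (0.566, 0.174 and 0.0215) and Cx3cl1 (0.271, 0.0947 and 0.0215) and the shared interleukin-6 family receptor Il6st (0.508, 0.181 and 0.177) led as well. Il6, C3, Cxcl9, Cxcl13, Ccl7 and Ccl21a had 0 UMIs in Mixed-1, which allows averages of up to 0.00671.

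Of 39 transcription factors of the stroma at the floor 5 led (12.8%), against 2.82% of all genes. Mixed-1 was the highest cluster, by any margin, for 12 of the 39, against 9.24% of all genes. Tshz2 averaged 7.73 in Mixed-1, 2.84 in mixed-2 and 3.07 in EC2, and Meis1 2.14, 0.710 and 0.429. Prrx1, a mesenchymal homeobox factor, averaged 0.221 and 0.0947 and had 0 UMIs in EC2. Nr2f2 and Gata6 were the other leading factors, at 2.23-fold (1.71 to 2.96) and 2.95-fold (1.36 to 7.61) above mixed-2. Meis2, of the same family as Meis1, was higher in EC2 (16.3) than in Mixed-1 (4.61). Foxd1, which marks the embryonic stromal progenitor, had 3 UMIs in Mixed-1, an average of 0.00671 against 0.190 in podocytes. Of 7 retinoid pathway genes at the floor 2 led, the retinoic acid synthesis enzymes Aldh1a2 (0.233 against 0.0947 in mixed-2) and Aldh1a1 (0.123 against 0.0360 in PT-S2/S3). Summed over the list, EC2 was higher (2.46) than Mixed-1 (2.34), and 2 members were at least 2-fold higher and 2 lower in Mixed-1 than in EC2.

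The 25 genes with the largest ratio to the next cluster, among those with at least 30 UMIs in Mixed-1, held C7, Col3a1 and Notch3 of the classical stromal markers and were otherwise less familiar genes. Tmem45a, a transmembrane protein, averaged 0.174 in Mixed-1, 0.00789 in mixed-2 and 0.00431 in EC2, a ratio of 22.1-fold (3.85 to 884) that rests on 1 UMI in mixed-2. The orphan receptor Gpr176 averaged 0.291, 0.0237 and 0.00215, 12.3-fold (4.11 to 60.3) above mixed-2. The doublecortin-like kinase Dclk1 averaged 0.212, 0.00789 and 0.00431, and its next cluster was PT-injury/repair at 0.0220. Kirrel3, an adhesion protein of the nephrin-binding family, averaged 1.40 in Mixed-1 and 0.158 in mixed-2, and with 626 UMIs it stood 8.74-fold (7.51 to 10.2) above TAL, the next cluster. Cygb, the globin of fibroblasts and pericytes, averaged 0.114, 0.0237 and 0.00646. Hif3a averaged 0.0671 in Mixed-1 against 0.00977 in EC1. The rest of the 25 were Wdr86, Gabrg3, C7, Adamts14, Trpc6, Abi3bp, Prelp, Srpx2, Clca3a1, Hoxd11, Matn2, Adamtsl2, Col3a1, Notch3, Spsb1 and the noncoding 8430419K02Rik, Gm17501, 9630002D21Rik and A230057D06Rik, at 4.31- to 11.3-fold. Many of these ratios rest on few counts: Wdr86 had 1 UMI in mixed-2, and Gabrg3, Prelp, 8430419K02Rik, Gm17501 and 9630002D21Rik had 2. Lower bounds fell to 1.16-fold, for 9630002D21Rik. Hif3a, Wdr86, Prelp and 9630002D21Rik stayed below 0.1 in every cluster and are not counted as leading. Adamtsl2 and Prelp are matrix proteins, and Hoxd11 is a homeobox gene of kidney patterning.

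With mixed-2 aside the order changed, since this removes the cluster that shares the profile. Srpx2 then led at 82.6-fold (21.7 to 700.5) above TAL, followed by Pdgfra (67.3-fold (22.9 to 327) above immune cells), the glutamate receptor Grm7 (61.3-fold (37.1 to 109.7) above immune cells) and the syntrophin Sntg1 (57.4-fold (24.5 to 177) above immune cells). Pdgfra, Col3a1 and Gucy1a2 were thus among the 25 genes that most set Mixed-1 apart from the 15 clusters. The 10 highest averages in Mixed-1 were Malat1 (120.2), Gm42418 (24.2), Prkg1 (10.2), Zbtb20 (9.71), Rora (9.61), Rbms3 (9.15), Tshz2 (7.73), Zeb2 (7.68), Arhgap24 (6.46) and Csmd1 (6.34). Malat1, Gm42418 and Zbtb20 were higher in other clusters. Zeb2 and Arhgap24 were highest in Mixed-1 but within 2-fold of the next cluster, while Prkg1, Rora, Rbms3, Tshz2 and Csmd1 led in Mixed-1 by 2.28- to 3.04-fold. Rbms3, an RNA-binding protein, averaged 3.31 in mixed-2 and 0.608 in EC2.

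Across the 7665 genes the Mixed-1 profile was most like that of mixed-2 (r = 0.803 of log2 values across genes, which are not independent), then EC1 (0.755), EC2 (0.738), podocytes (0.693) and PT-injury/repair (0.686). It was least like PT-S3-2 (0.474). Clusters of the same tissue share libraries and many ubiquitous genes, so r is given as a description.

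**Figure D4:**
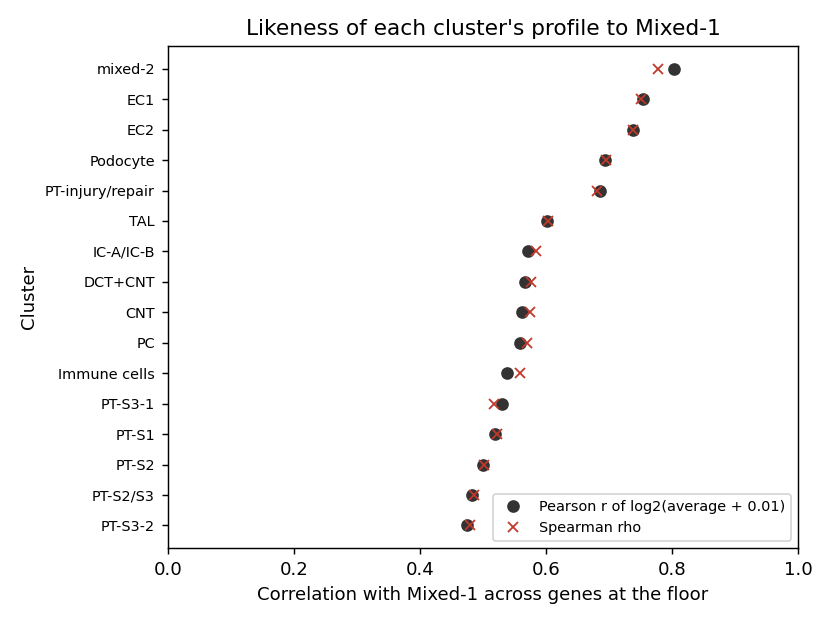
Correlation of each of the other 16 clusters with Mixed-1 across 7665 genes, as Pearson r of log2(average + 0.01) (dots) and Spearman rho (crosses). Mixed-2 is nearest (r = 0.803), the EC clusters follow and the PT-S clusters are farthest, down to 0.474.

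Against mixed-2, 6708 genes had a mean of both averages of at least 0.05, and Mixed-1 was at least 2-fold higher for 739 (11%) and lower for 965 (14.4%). Stromal and matrix lists lay above that background. The 22 proteoglycan and matrix glycoprotein genes tested had a median log2 ratio of 1.25, fibroblast markers 1.52 and pericyte markers 1.64, against 0.02 for all genes. Of these, 18 of 22, 7 of 7 and 5 of 6 were at least 2-fold higher. Only 22 of 41 measured matrix genes, 7 of 16 fibroblast markers and 6 of 12 pericyte markers reached the floor, which a gene can do through Mixed-1 alone. With all measured members these medians were 1.08, 1.13 and 1.19. The 10 genes with the largest excess in Mixed-1 were Dclk1, Frmd5, Tmem45a, Gpr176, Kirrel3, Ndst3, C7, Tgfb2, Adcy2 and Gab3. C7 and Kirrel3 rest on enough counts in mixed-2 for a narrow ratio, 6.89-fold (4.86 to 10.1) and 8.87-fold (5.69 to 14.6). Frmd5 had 48 UMIs in Mixed-1 and 0 in mixed-2, where 3 UMIs would make it at least 4.53-fold higher in Mixed-1. The other 7 rest on 1 to 3 UMIs in mixed-2.

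Proximal tubule RNA was lower in Mixed-1 than in mixed-2. All 12 proximal tubule markers were at least 2-fold lower in Mixed-1, with a median log2 ratio of -2.49. Megalin (Lrp2), the endocytic receptor of the proximal tubule, averaged 0.286 in Mixed-1, 2.54 in mixed-2, 0.327 in EC2 and 5.83 in PT-S2. The phosphate transporter Slc34a1 averaged 0.590, 3.84, 0.545 and, in PT-S1, 12.4. Mixed-1 and EC2 thus sat at a like low level, and mixed-2 between them and the tubule. The 10 genes lowest in Mixed-1 relative to mixed-2 were Vmn1r18, St8sia6, Them7, Slc18a1, Slco1a6 and the noncoding Gm42397, Hnf4aos, Gm16311, 4930533I22Rik and Gm45792. St8sia6 was highest in EC1, and the other 9 were highest in a PT-S cluster. The transporter Slco1a6, for example, averaged 0.114 in Mixed-1, 1.60 in mixed-2 and 4.17 in PT-S2/S3.

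The size of both differences was measured on wider sets of genes. For 147 genes at least 4-fold higher in Mixed-1 than in the 15 clusters without mixed-2, the mixed-2 average was at a median of 33.4% of the Mixed-1 average (quartiles 28.2% and 40.4%). This choice of genes keeps the 15 clusters low and leaves mixed-2 free, so their levels are no comparison for it. For 337 genes at least 4-fold higher in the PT-S clusters than in any cluster except PT-injury/repair, mixed-2 and Mixed-1, the mixed-2 average was at a median of 30.5% of the highest PT-S cluster and the Mixed-1 average at 4.10%. Both clusters were left free by this choice, and the others were held low by it. Whether its nuclei are of a kind of their own, are pairs of nuclei or carry free RNA was not tested.

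Single genes among those high in Mixed-1 lay far from the median of 33.4%. Myh11 in mixed-2 was at 98.2% of its Mixed-1 average, Tagln at 77.0%, Ednra at 72.7% and the adenylyl cyclase Adcy3 at 71.9%. Hpse2, a heparanase homologue, had the highest mixed-2 level relative to Mixed-1 of the 147, at 0.126 against 0.0581 (16 and 26 UMIs, 2.17-fold (1.09 to 4.20) lower in Mixed-1), and the lincRNA Gm30524 was level at 0.134 and 0.132. At the other end, Dclk1 in mixed-2 was at 3.72%, Tmem45a at 4.52%, Gpr176 at 8.14% and Kirrel3 at 11.3% of Mixed-1. Hpse2 and Gm30524 were chosen after their values were seen. The 36 genes that led only with mixed-2 aside included Myh11, Tagln, Mylk, Agtr1a, Ednra, Ano1, Hgf, Col12a1 and Arhgap24.

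**Figure D5:**
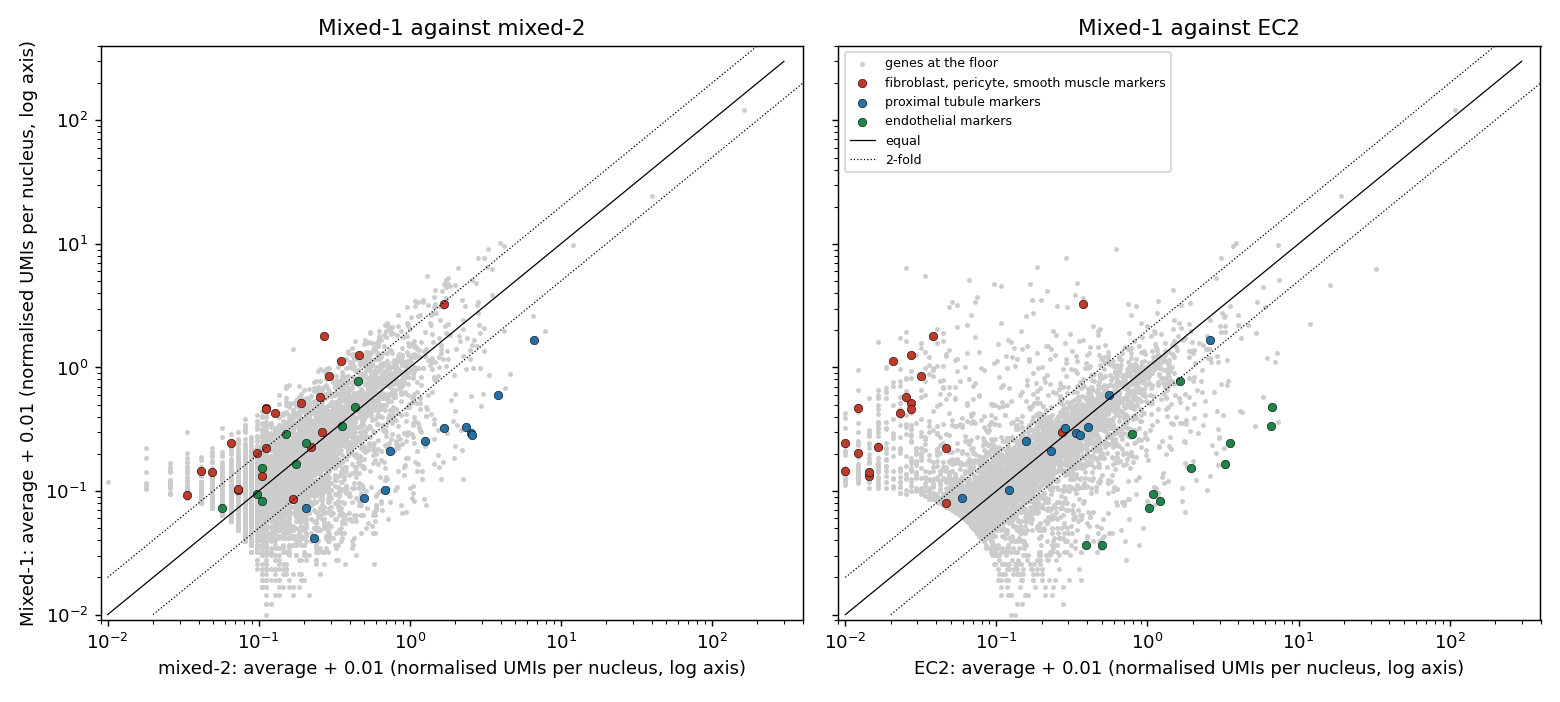
Averages in Mixed-1 (vertical) against mixed-2 (left) and EC2 (right) for the genes tested, in normalised UMIs per nucleus plus 0.01 on log axes; the solid line is equality and dotted lines are 2-fold. Most fibroblast and pericyte markers (red) lie at least 2-fold above equality in both. Of the smooth muscle markers, also red, 5 of 6 do so against EC2 but only 2 of 9 against mixed-2, where Myh11 is level. The 12 proximal tubule markers (blue) lie below equality against mixed-2 and near it against EC2. The 12 endothelial markers (green) lie below it against EC2.

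Against EC2, 6467 genes were tested, and Mixed-1 was at least 2-fold higher for 754 (11.7%) and lower for 732 (11.3%). The cluster EC2 is endothelial by its markers: all 12 endothelial markers were highest there among the 17 clusters. The 10 genes with the largest excess in Mixed-1 over EC2 were Csmd1, Gpc6, Sntg1, Dgkb, Grm7, Tenm3, Ak5, Fhl2, Abca8a and Kcnt2. Csmd1, a complement-regulating membrane protein, averaged 6.34 in Mixed-1, 2.08 in mixed-2 and 0.0151 in EC2, 420.5-fold (204 to 1047) above EC2. Glypican-6 (Gpc6), a heparan sulfate proteoglycan of the cell surface, averaged 5.46, 1.29 and 0.0237, 230.2-fold (128 to 462) above EC2. The lipid transporter Abca8a averaged 1.63, 0.616 and 0.0151.

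By list, the median log2 ratio to EC2 was 4.53 for fibroblast markers (6 of 7 at least 2-fold higher), 4.15 for pericyte markers (6 of 6), 3.50 for smooth muscle markers (5 of 6) and 3.11 for proteoglycans and matrix glycoproteins (16 of 21), against -0.01 for all genes. Only 7 of 16 fibroblast markers and 6 of 12 pericyte markers reached the floor, and a gene can reach it through Mixed-1 alone. With all measured members the 4 medians were 1.85, 2.24, 3.17 and 1.54. Basement membrane glycoproteins had a median near 0 (0.02), with 6 higher and 4 lower of 15. Axon guidance genes leaned the other way, with 12 lower and 7 higher of 23 and a median of -1.04 (-0.42 with all measured members). Within that list the ligand Slit3 led in Mixed-1 (2.26 against 0.896 in EC2), and its receptor Robo1 averaged 0.937 and 0.0280. Plexins and semaphorins such as Plxna2 (0.246 and 1.24) and Sema6a (0.241 and 1.76) were higher in EC2.

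The 10 genes lowest in Mixed-1 relative to EC2 were Nlgn1, Car8, Rgcc, Adgrl4, Pcdh17, Tek, St6galnac3, Flt1 and the noncoding D5Ertd615e and Rapgef4os1. Flt1, a receptor for vascular endothelial growth factor, averaged 0.326 in Mixed-1, 0.347 in mixed-2 and 6.55 in EC2, 20.1-fold (17.0 to 23.9) lower in Mixed-1. Tek, the angiopoietin receptor, averaged 0.154, 0.166 and 3.27. The cell adhesion protein Nlgn1 averaged 0.0581, 0.0473 and 1.76. All 12 endothelial markers were at least 2-fold lower in Mixed-1, with a median log2 ratio of -3.79. They were not absent: endoglin (Eng) averaged 0.765 in Mixed-1 and 1.64 in EC2, and Plvap 0.282 and 0.782. The 12 summed to 2.64 in Mixed-1, 2.08 in mixed-2 and 28.5 in EC2. No endothelial marker was at 0, and the part of these UMIs in the Mixed-1 profile was not tested.

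Markers of many other cell types lay far below their own cluster, but not those of every list. Summed over each list, the 10 podocyte markers reached 2.00 in Mixed-1 against 139 in podocytes, 1.44%. The 14 macrophage and dendritic cell markers reached 0.136 against 8.73 in immune cells, 1.56%, with Cd68 and F13a1 at 0 UMIs. The 7 lymphocyte markers reached 2.52% of immune cells, with Cd79a and Ms4a1 at 0. The 12 proximal tubule markers summed to 4.16 in Mixed-1, 5.07 in EC2, 23.1 in mixed-2 and 49.5 in PT-S1, and their median log2 ratio to EC2 was -0.15, with none past 2-fold. For markers of the thick ascending limb, the distal convoluted tubule, the principal cell and the intercalated cell the sums were 3.04%, 1.50%, 2.48% and 1.35% of their highest cluster. Of the injured tubule markers Havcr1, Krt20 and Lcn2 had 0 UMIs, but the list's sum of 1.77 was 35.6% of that in PT-injury/repair. Dock10, at 1.23 in Mixed-1 and 2.81 in immune cells, made up most of it, followed by Spp1 (0.347) and Vcam1 (0.116). Of the 5 adipocyte genes Adipoq, Plin1 and Cidec had 0 UMIs, while Lpl (41 UMIs) and Pparg (28 UMIs) brought the sum to 33.6% of that in immune cells. Glial markers had 7 UMIs in all, 19.4% of the sum in PT-injury/repair, with Sox10, Cdh19 and Gfra3 at 0. The part of these UMIs in the Mixed-1 profile was not tested.

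Markers listed for the mesangium, the parietal epithelium and the thin limb were found in part. Of 9 mesangial markers at the floor only Fhl2 led (11.1%, against 2.82% of all genes). Itga8, the integrin of mesangial cells, averaged 0.575 in Mixed-1, 0.213 in mixed-2 and 0.315 in immune cells, 1.82-fold (1.36 to 2.48) above the last. Gata3, the mesangial transcription factor also used by the collecting duct, averaged 0.0425 in Mixed-1 and 0.545 in PC. Dkk3 and the adhesion protein Cdh13 led in Mixed-1 although listed for parietal epithelium and thin limb. Cdh13 averaged 2.12, 0.750 and 0.0452 in Mixed-1, mixed-2 and EC2, and the thin limb markers Slc14a2 and Aqp1 0.0335 and 0.0313 in Mixed-1, below 0.242 in PT-injury/repair and 0.223 in PT-S3-1. Renin (Ren1), made by the juxtaglomerular cells of the afferent arteriole, had 18 UMIs in Mixed-1, 0 in mixed-2 and 3 in EC2. Its average of 0.0402 was 4.12-fold (1.70 to 11.0) above PT-injury/repair, the next cluster, but below the floor of 0.1. Of 5 renin cell markers only 1 reached that floor, at 60.7% of its highest other cluster, so none was counted as leading.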

How the data were processed

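Nuclear RNA of kidney cortex with outer medulla was counted in droplets as UMIs. Per the submitters' processing notes, Cell Ranger 5.0.1 and mm10 were used. How nuclei were filtered and clustered, and how doublets and free RNA were treated, is not given in the sources. The deposited averages are a signal per cluster, normalised UMIs per nucleus pooled over nuclei by the authors, per the file headers. The deposited fold changes and p-values and the table of proximal tubule nuclei were not used.

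UMI sums were recovered as whole multiples of each column's smallest step, with 100% of values whole within 0.1 UMI. Ratios of averages have 95% Clopper-Pearson intervals and averages 95% Poisson intervals, which cover counting error only, and 0 UMIs were set to 3 for a bound. Calls used log2(average + 0.01), a 2-fold difference, and a floor of 0.1 for the highest of 17 averages or of 0.05 for the mean of 2. No test was possible, since no column is a sample. Of 24468 gene IDs, 24432 matched GENCODE M21, and 25 symbols that a spreadsheet had turned into dates were restored from the IDs.

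The members and lists were chosen with earlier results of these data known. Genes named are the 25 with the largest ratio to the next cluster at 30 or more UMIs (and the same without mixed-2), the 10 highest averages, the 10 largest differences in each direction per comparison, the 4 markers, the 5 genes most like Pdgfrb, and, from each list, those that led, the 2 highest and those at 0; other named list members were chosen after their values were seen. A few genes that meet this rule are not reported here. Scripts used Python 3.11.15, numpy 2.4.6, scipy 1.17.1, pandas 2.3.3 and matplotlib 3.10.9 and were tested on simulated data. Other floors, pseudocounts, folds and scalings were tried.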

Additional observations from a re-analysis of the deposited data

How the results depend on the processing

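No paired analysis was possible because the columns pool samples and carry no replicate number. The count of genes at least 2-fold higher in Mixed-1 than in mixed-2 (739) was 1118 with a floor of 0.02, 1839 with no floor, 456 with a pseudocount of 0.05, 59 at 4-fold and 159 with the whole counting interval past 2-fold. The count of lower genes (965) was 1493 with a floor of 0.02, 615 with a floor of 0.1, 2080 with no floor, 333 at 4-fold and 489 by the counting interval. The higher share of calls against mixed-2, 43.4%, was 15.1% at 4-fold and 24.5% by the counting interval. Against EC2, the higher count (754) was 1174 with a floor of 0.02, 1676 with no floor and 433 at 4-fold, and the lower count (732) 1308 with no floor and 301 at 4-fold. Of the 216 leading genes, 17 remained at 4-fold and 86 had the whole counting interval past 2-fold. A change of floor alters which genes are tested, while the fold, the pseudocount and the counting interval alter only which of the same genes pass. By the counting interval, 86 of the 216 leading genes and 159 of the 739 higher than mixed-2 stood past 2-fold beyond counting error, and the others did not. With members below the floor included, the median log2 ratio changed sign for 4 lists, to -0.0089 for podocyte markers against mixed-2 and, against EC2, to -0.52 for Notch genes, 0.29 for hypoxia genes and 0.41 for immediate early genes; the cause was not tested. A further 18 list medians moved by over 1.5-fold in that setting and 52 did not. The order mixed-2, EC1, EC2 of likeness held under each alternative. Depth limits mixed-2 most, since 3 UMIs are an average of 0.0237 there.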

Other observations

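Several leading genes are best known from neurons. They were picked after their values were seen, and whether such genes are in excess was not tested. The metabotropic glutamate receptor Grm7 averaged 5.08 in Mixed-1, 1.72 in mixed-2 and 0.0560 in EC2. The AMPA receptor subunit Gria4 averaged 1.26, 0.402 and 0.0194, and the GABA-A receptor subunits Gabra3 and Gabrg3 averaged 0.756 and 0.143 in Mixed-1, 0.221 and 0.0158 in mixed-2 and 0.0108 and 0.00215 in EC2. All 4 were at least 36.6-fold above the highest of the 15 clusters without mixed-2. The voltage-gated potassium channel Kcnd3 averaged 2.04, 0.718 and 0.0302. Gene length was compared because nuclear RNA holds introns: the 216 leading genes had a median length of 85.4 kb, all genes at the floor 48.2 kb, and genes at the floor whose Mixed-1 average reached the median of the 252 genes that led without mixed-2 156 kb.

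Genes of stress and division gave few UMIs in Mixed-1 and did not all lie in the same direction. None of 8 immediate early genes at the floor led, and Mixed-1 was the highest cluster for 1. Of all genes at the floor, 2.82% led and 9.24% were highest in Mixed-1, so these counts do not set the list apart. The immediate early gene Egr1 averaged 0.210 in Mixed-1, 0.134 in mixed-2 and 0.0302 in EC2, and Fosb and Fosl1 had 0 UMIs. None of 7 p53 targets at the floor led, which so short a list cannot tell from the 2.82% of all genes. Mdm2 averaged 0.139, 0.110 and 0.114 in Mixed-1, mixed-2 and EC2. Epo, the hormone of the hypoxic interstitial fibroblast, had 2 UMIs in Mixed-1, 2 in mixed-2 and 6 in EC2. Mki67, which marks dividing cells, had 19 UMIs in Mixed-1, an average of 0.0425 against 0.0237 in EC2, the next cluster, 1.79-fold (0.811 to 4.17). The 7 cycling markers summed to 0.127 in Mixed-1 and 0.171 in immune cells, the highest cluster. Dnm3os, the noncoding host of a miRNA cluster and antisense to Dnm3, averaged 0.246 against 0.0631 in mixed-2, and the oncostatin M receptor Osmr 0.982 against 0.276, both chosen after their values were seen. The strand setting of the counting is not stated, so reads of Dnm3os and Dnm3 cannot be told apart.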
